A study of Mus musculus with 13 samples.

Results

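The genes described here encode collagens and other components of the extracellular matrix. The set was a list of 38 genes given by name, and each was matched by symbol to the annotated features of a mouse expression array. A feature was found for 35 of them among the 22206 features tested, each gene with 1 feature. Col12a1, Fbn1 and Loxl2 had none in the annotation given and are named only. The list was not made by a cut on the measured values of this series, but it was chosen with earlier results of these data known.

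The extracellular matrix is the network of secreted proteins around cells. Fibrillar collagens form its tensile fibres, with collagen I assembled from the Col1a1 and Col1a2 chains. Collagen IV and its partners form the sheet-like basement membrane under epithelium and around vessels. Small proteoglycans bind to the fibrils, lysyl oxidases cross-link them, and matricellular proteins such as periostin and the thrombospondins act on cells and fibrils without being main structural parts. In mammary tumours, fibroblasts and related stromal cells make most of the fibrillar collagen, and carcinoma cells can make matrix proteins too.

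RNA was pooled from tumours grown in a mammary fat pad of BALB/c mice after injection of a 4T1 line, a mouse mammary carcinoma line from that strain. Hosts were WT or Nlrx1-/- BALB/c mice, the second lacking Nlrx1, a NOD-like receptor of mitochondria, and ages are not stated. The cells were parental 4T1 (untransduced), 4T1OE (overexpression of NLRX1) or 4T1OE-CTL (overexpression controls). The 2 hosts and 3 lines made 6 groups of 2 arrays, 12 in all. Injected cells in every group carried their own Nlrx1, so an Nlrx1-/- host lacked it only in host cells. The labels named 1 line of each kind and no clones, and pool sizes are not stated, so p-values measured only the spread between pools. The label of Nlrx1-/- parental replicate 1 recommended leaving it out on a principal component analysis, and the fits used the other 11 arrays. The 1 remaining Nlrx1-/- parental array was assumed to vary like the other groups.

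All values are log2 expression values as deposited. The standard deviation over all features was 2.53 on the array left out and 2.78 to 3.12 on the others, 4 of which were under 3. These were WT parental replicate 1 (2.89), WT 4T1OE-CTL replicate 1 (2.88) and both Nlrx1-/- 4T1OE-CTL arrays (2.91 and 2.78). The 4T1OE arrays had 3.09 to 3.12, so the spread of an array was partly tied to its line. The median correlation of the array left out with the others was 0.896 across features, against 0.958 to 0.981 for the fitted arrays. Nlrx1 lay between 9.31 and 10.67 on the 4 4T1OE arrays and between 5.99 and 7.13 on the other 8 arrays, hosts of both genotypes included. Skeletal muscle markers stood 4.46 above their gene medians on WT 4T1OE replicate 1, 2.66 on WT 4T1OE-CTL replicate 1 and 3.01 on Nlrx1-/- 4T1OE-CTL replicate 2. Lymph node markers stood 3.65 above on Nlrx1-/- 4T1OE replicate 1 and 4.84 on Nlrx1-/- 4T1OE-CTL replicate 1, both fitted, and 2.65 above on the array left out. Line comparisons below are fitted log2 differences averaged over hosts, tested with limma at an adjusted p under 0.05 over all features, and they share arrays with one another. In bulk RNA, fewer cells of a type and less RNA per cell cannot be told apart.

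Of the 35 genes, 28 lay above the median of the negative control features on every one of the 12 arrays, and none lay under it on all 12. The other 7 were under it on some arrays. Fmod, the collagen-binding proteoglycan fibromodulin, and Dpt, dermatopontin, were mostly at that level, and Col5a1, Col8a1, Col15a1, Fbln5 and Mfap5 on a few arrays. Fn1, the adhesive glycoprotein fibronectin, lay between 18.52 and 19.83 on all 12 arrays, close to the top of the array's scale.

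**Figure D1:**
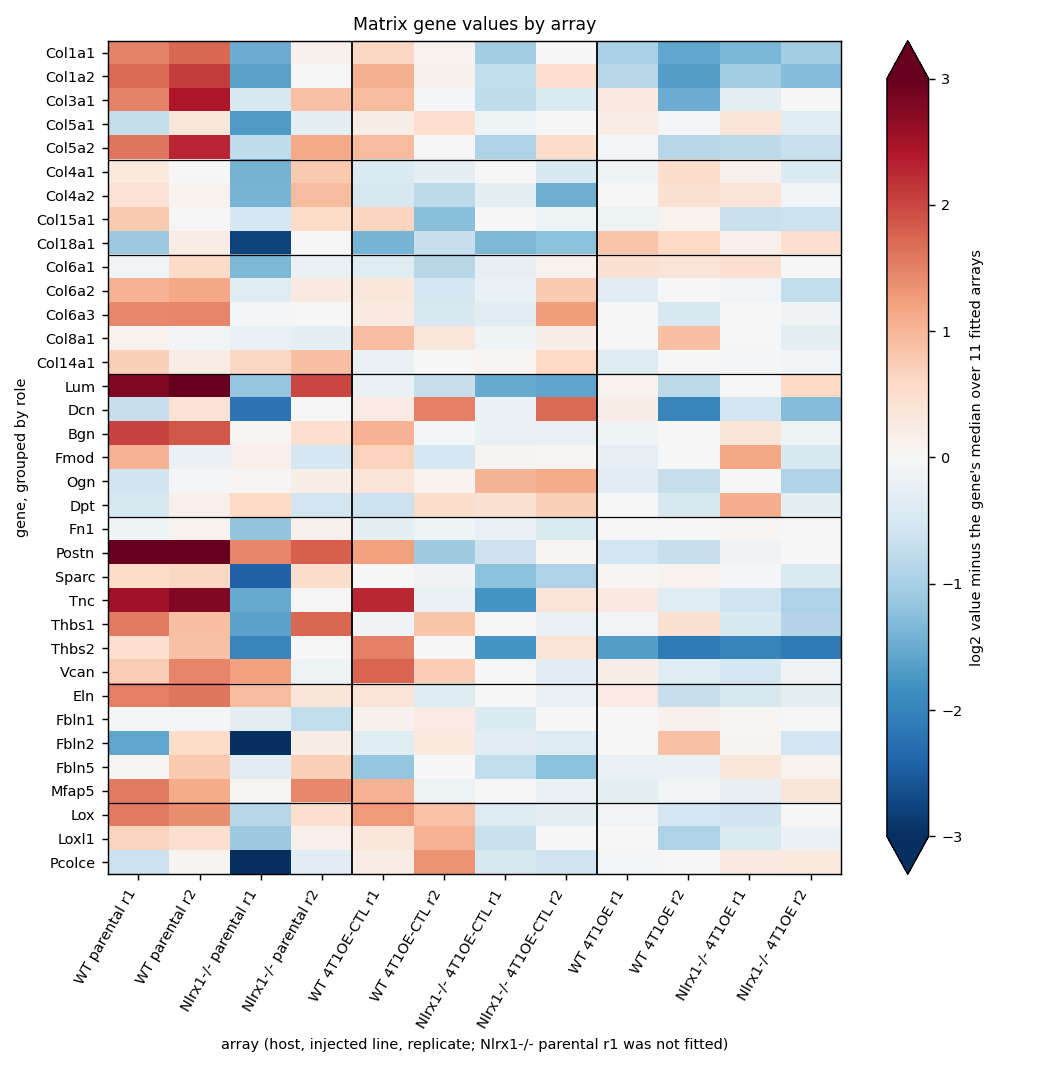
Each row is 1 of the 35 matrix genes, grouped by role, and each column 1 of the 12 arrays; colour gives the log2 value after subtraction of each gene's median on the 11 fitted arrays, with values beyond 3 in either direction in the end colour. Col1a1, Col1a2, Col3a1, Col5a2, Lum, Postn and Tnc are highest in the WT parental columns, and the array that was not fitted is below 0 for 26 of the 35 genes.

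Part of the matrix set had lower values in 4T1OE tumours than in parental ones. Of the 35 genes, 8 fell and 0 rose, where 1.33% of all features passed, 0.441% lower and 0.887% higher. At an unadjusted p under 0.05, 18 genes were lower and 1 higher, against 5.73% and 8.11% of features (13.8% in all). The differences were negative for 27 of 35 genes with a median of -0.77, against -0.03 over all features. The genes that fell encode 3 fibrillar collagen chains (Col1a1, Col1a2, Col5a2), the proteoglycan lumican (Lum), 3 matricellular proteins (Postn, Thbs1, Thbs2) and the elastic microfibril protein Mfap5. Comparing 4T1OE-CTL with parental tumours, 3 genes fell and 0 rose, where 2.59% of all features passed, 1.62% lower and 0.968% higher. At an unadjusted p under 0.05, 15 genes were lower and 1 higher, against 9.25% and 6.66% of features (15.9% in all). The 3 that fell were Lum, Postn and Sparc, and the median over the genes was -0.66, against 0.02 over all features. Between the transduced lines, 4T1OE minus 4T1OE-CTL, Col18a1 rose while Ogn and Thbs2 fell, 3 of 35 genes where 4.73% of all features passed, 3.69% higher and 1.04% lower. At an unadjusted p under 0.05, 6 genes were higher and 7 lower, against 14.3% and 9.84% of features (24.2% in all). The median here was -0.23 against -0.05 over all features, and it depended on the arrays fitted. It was 0.14 without the 3 arrays high in muscle markers, the opposite sign, and -0.01 with the array standard deviation as covariate or -0.04 without the arrays whose standard deviation was under 3. Leaving out WT 4T1OE-CTL replicate 1 gave -0.04, WT 4T1OE replicate 2 -0.06, Nlrx1-/- 4T1OE-CTL replicate 2 -0.13 and Nlrx1-/- 4T1OE replicate 1 -0.35. Over all features, 4 passed in this comparison with the array standard deviation as covariate, where 1051 passed without it. With the left-out parental array fitted too, the median was -0.55 in 4T1OE and -0.32 in 4T1OE-CTL minus parental.

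**Figure D2:**
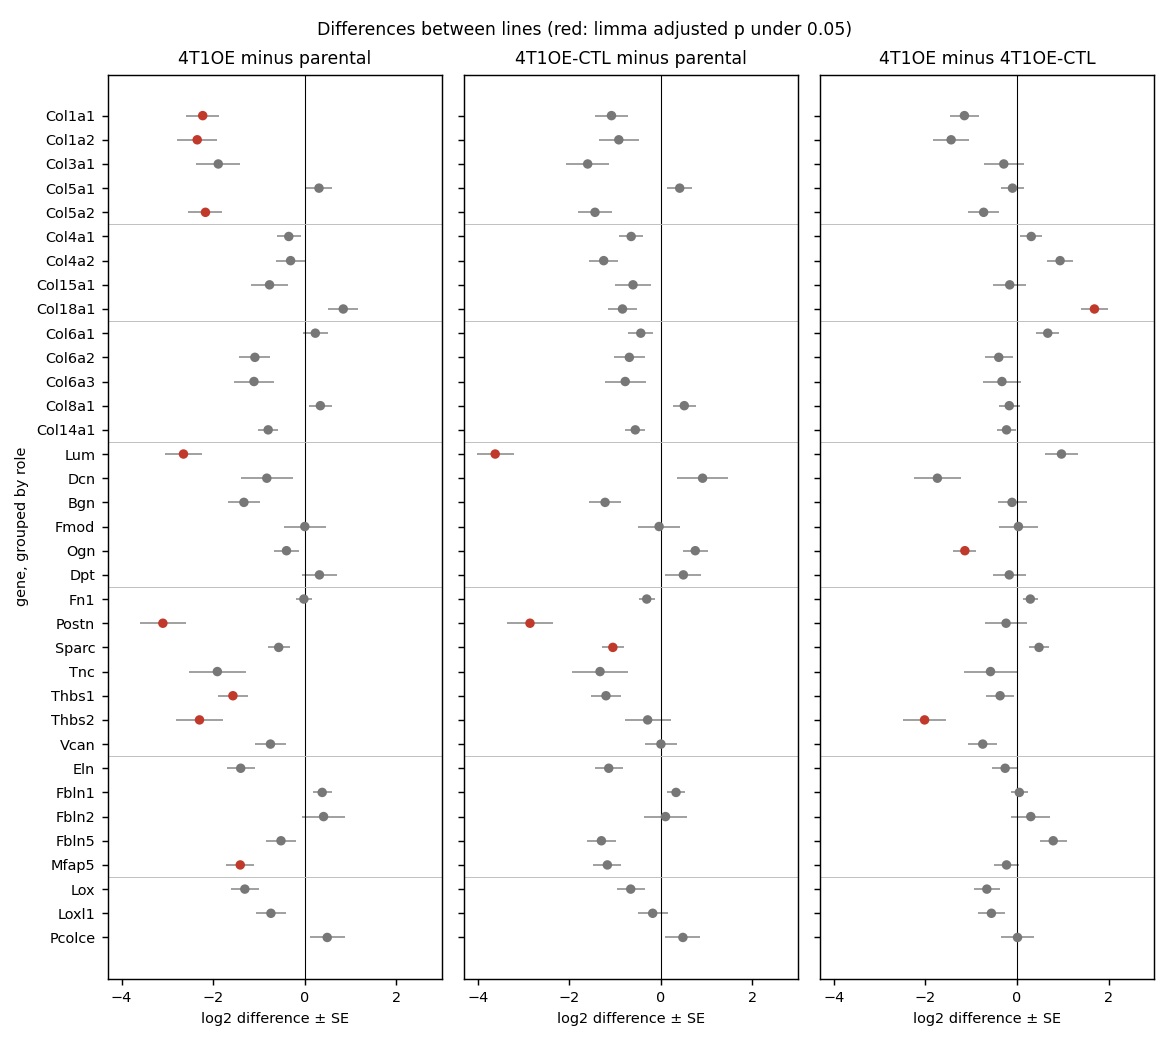
Points are fitted log2 differences for the 35 matrix genes in the 3 comparisons of lines, with bars of 1 SE, and red marks an adjusted p under 0.05. Most points lie left of 0 in both comparisons with parental tumours, with Lum and Postn farthest left in each.

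Of the 5 fibrillar collagen chains, 3 fell in 4T1OE against parental tumours, where 0.441% of all features passed lower. The median over the 5 was -2.17. Col1a1, a chain of collagen I, measured 14.05 and 14.29 in WT parental tumours and 12.68 in the fitted Nlrx1-/- parental tumour. It measured 13.17 and 12.67 in WT and 11.54 and 12.57 in Nlrx1-/- hosts of 4T1OE-CTL tumours, and 11.60 and 11 in WT and 11.19 and 11.55 in Nlrx1-/- hosts of 4T1OE tumours. All 4 4T1OE arrays lay below the 3 fitted parental arrays, while 4T1OE-CTL arrays spanned the gap and overlapped both. The difference of 4T1OE from parental was -2.23 (SE 0.354, adjusted p = 0.0138), a 4.69-fold lower level, from 13.68 ± 0.869 (SD, n = 3) to 11.34 ± 0.288 (n = 4). The array left out had 11.09, within the 4T1OE range. With it the difference was -1.69 (adjusted p = 0.113), and without WT 4T1OE replicate 1 it was -2.20 (adjusted p = 0.0517).

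Col1a2, the partner chain, followed Col1a1. Its WT parental arrays had 13.59 and 13.98 and the fitted Nlrx1-/- parental array 11.89, against 11.04, 10.23, 10.85 and 10.60 on the 4T1OE arrays. The fall was 2.35 on the log2 scale (SE 0.431, adjusted p = 0.0237), and the groups did not overlap. Fitting all 12 arrays gave -1.76 (adjusted p = 0.145). The call also ended without either WT parental array, either WT 4T1OE array or Nlrx1-/- 4T1OE replicate 2 (adjusted p from 0.0541 to 0.0786). Within an array the gap between Col1a1 and Col1a2 stayed between 0.21 and 0.95 over all 12 arrays, although each gene alone spanned 3.29 and 3.75. Against 4T1OE-CTL tumours, 4T1OE values of Col1a2 were 1.44 lower (SE 0.396, adjusted p = 0.0594) and those of Col1a1 1.15 lower (SE 0.325, adjusted p = 0.0643), both short of the threshold. Of the 2 genes, only Col1a2 had all 4 4T1OE arrays below the 4 4T1OE-CTL arrays, which read 12.95, 12.02, 11.14 and 12.36.

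The bases before the Col1a2 start are shown because this gene fell with its partner chain and its promoter window was listed. The window is chr6:4505368-4505617 on the plus strand of GRCm38.p6, from RefSeq. Capitals mark a CCAAT box 109 bases before the start and 2 GGGCGG boxes 188 and 205 bases before it.
Col1a2: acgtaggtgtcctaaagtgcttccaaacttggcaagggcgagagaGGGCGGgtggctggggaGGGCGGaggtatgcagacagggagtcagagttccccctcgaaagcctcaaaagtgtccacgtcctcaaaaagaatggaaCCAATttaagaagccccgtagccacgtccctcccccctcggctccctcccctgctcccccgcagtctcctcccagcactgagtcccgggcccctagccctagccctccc

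Col5a2, a chain of collagen V, which sits inside collagen I fibrils, had 9.27, 9.94 and 8.79 on the fitted parental arrays and 7.61, 6.81, 6.88 and 6.99 on the 4T1OE arrays. No 4T1OE array reached a parental one, and the fall was 2.17 (SE 0.371, adjusted p = 0.0194). On all 12 arrays it was -1.65 (adjusted p = 0.121), and the call ended without WT parental replicate 2, Nlrx1-/- parental replicate 2, either WT 4T1OE array or Nlrx1-/- 4T1OE replicate 1 (adjusted p from 0.0515 to 0.0676). Its partner chain gene Col5a1 lay low on the scale and gave 0.31 for the same difference, without passing. Col3a1, the collagen III gene, had a difference of -1.89 (SE 0.476, adjusted p = 0.0834), so 3 of the 5 fibrillar chains passed. In 4T1OE-CTL against parental tumours none of the 5 passed with limma (0 of 5, with Col1a1, Col3a1 and Col5a2 at an unadjusted p under 0.05). Col3a1 had -1.60 (SE 0.476, adjusted p = 0.109) and Col5a2 -1.44 (adjusted p = 0.0653), and Col5a1 was highest at 0.41.

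**Figure D3:**
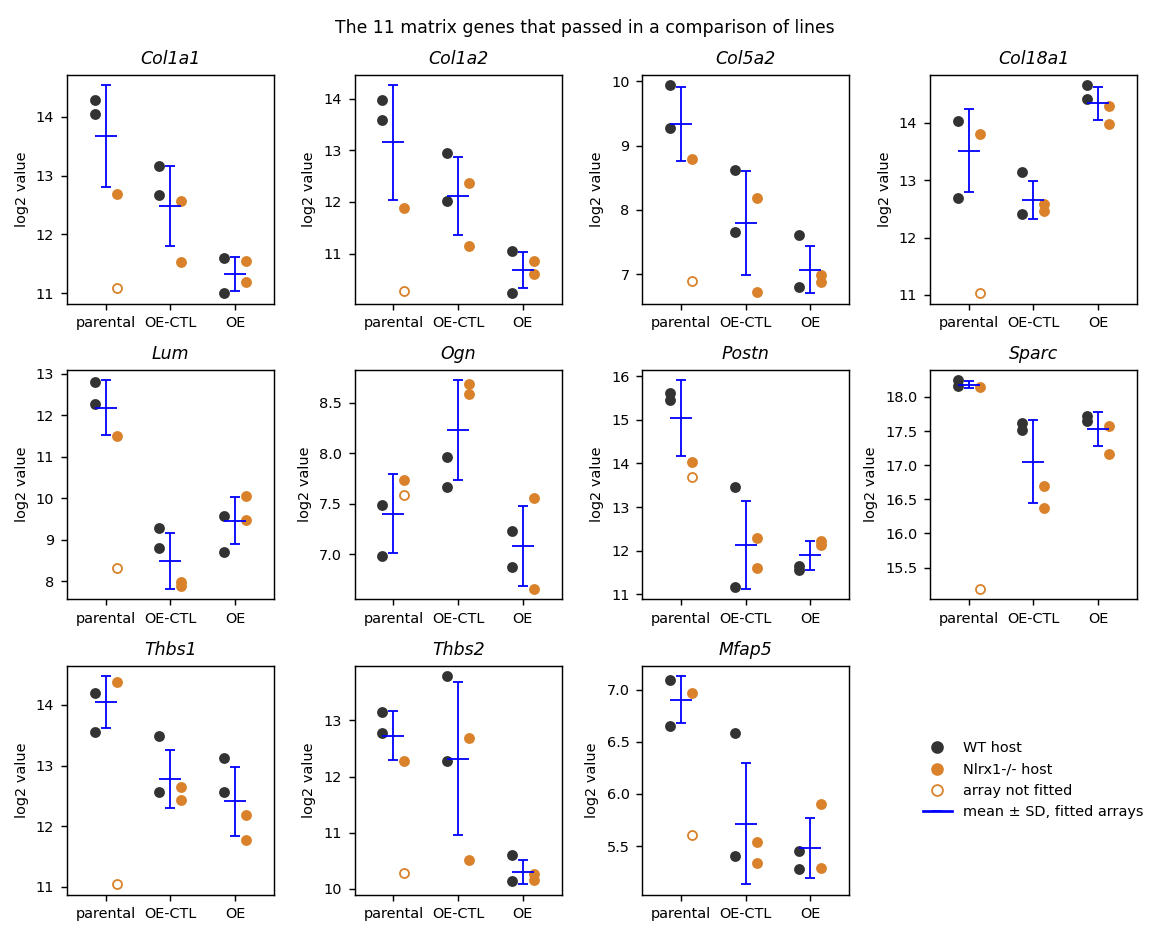
Log2 values of the 11 matrix genes that passed in a comparison of lines are shown for each array, black for WT and orange for Nlrx1-/- hosts, with open circles for the array not fitted and bars for the mean ± SD of the fitted arrays. In the Col1a1, Col1a2, Col5a2, Lum, Postn, Sparc, Thbs1, Thbs2 and Mfap5 panels the 3 fitted parental points sit above all 4 4T1OE points.

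Of the 4 basement membrane collagens 1 rose and 0 fell in 4T1OE minus 4T1OE-CTL, where 3.69% of all features passed higher. The median over the 4 was 0.62. Col18a1, the collagen XVIII gene whose product releases endostatin, was the only one of the 35 genes that rose in any comparison. It measured 14.66, 14.42, 13.98 and 14.29 in 4T1OE tumours and 12.41, 13.14, 12.47 and 12.58 in 4T1OE-CTL tumours, so the lines did not overlap. The difference was 1.69 (SE 0.298, adjusted p = 0.0154), a 3.22-fold higher level. The fitted parental arrays, 12.69, 14.04 and 13.81, overlapped both lines, and the differences from parental of 0.84 for 4T1OE and -0.84 for 4T1OE-CTL did not pass. Fitting all 12 arrays left the difference at 1.69 but raised the adjusted p to 0.164. Leaving out WT 4T1OE replicate 2, either Nlrx1-/- 4T1OE array or WT 4T1OE-CTL replicate 1 also ended the call (adjusted p from 0.0514 to 0.0622).

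Col4a1 and Col4a2 encode the main collagen IV chains and start 21 bases apart on opposite strands of chromosome 8 (GRCm38.p6, RefSeq). Col4a2 measured 9.93, 10.39, 10.35 and 9.84 in 4T1OE tumours, all above the 4T1OE-CTL values of 9.45, 9.15, 9.67 and 8.47, with a difference of 0.94 (SE 0.286, adjusted p = 0.0801). Col4a1 gave 0.31 in the same comparison. Against parental tumours Col4a2 was 1.25 lower in 4T1OE-CTL tumours (SE 0.312, adjusted p = 0.0590), and Col4a1 0.65 lower, neither past the threshold. Col15a1, the collagen XV gene, had differences from -0.77 to -0.16 in the 3 comparisons and passed in none.

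The genes for collagens VI, VIII and XIV gave no call in any comparison of lines with limma (0 of 5 genes; at an unadjusted p under 0.05, Col6a1 in 4T1OE minus 4T1OE-CTL, Col14a1 in 4T1OE-CTL minus parental and 3 genes in 4T1OE minus parental). Col6a2 and Col6a3, which encode chains of the beaded collagen VI filament, had -1.09 and -1.11 in 4T1OE minus parental, and Col14a1, a fibril-associated collagen, had -0.80. The third chain gene, Col6a1, had 0.23 there and 0.67 in 4T1OE minus 4T1OE-CTL. Col8a1, a short-chain collagen, lay near background, with 0.51 in 4T1OE-CTL minus parental (SE 0.254, adjusted p = 0.365).

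Lum showed the largest difference of the set. Lumican is a small leucine-rich proteoglycan that regulates collagen fibril spacing. WT parental tumours had 12.26 and 12.79 and the fitted Nlrx1-/- parental tumour 11.49. The 4T1OE-CTL tumours had 9.28, 8.80, 7.97 and 7.89, and the 4T1OE tumours 9.58, 8.69, 9.48 and 10.06. Both transduced lines lay entirely below the fitted parental arrays. Lum fell by 3.62 in 4T1OE-CTL (SE 0.401, adjusted p = 0.00114), a 12.3-fold lower level, and by 2.65 in 4T1OE (SE 0.401, adjusted p = 0.0110), 6.28-fold lower. Both calls held without any one of the 11 fitted arrays, with adjusted p up to 0.00663 and 0.0448. The array left out had 8.32, and with it the differences were -2.73 (adjusted p = 0.119) and -1.76 (adjusted p = 0.215). In 4T1OE minus 4T1OE-CTL the value was 0.97 (SE 0.368, adjusted p = 0.139), with overlapping arrays.

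Dcn, decorin, is a proteoglycan of the same family and lies next to Lum on chromosome 10 with no coding gene between them. It did not follow Lum. Dcn had 11.67, 12.78 and 12.35 in parental tumours, 12.60, 13.87, 12.17 and 14.04 in 4T1OE-CTL tumours and 12.55, 10.37, 11.77 and 11.05 in 4T1OE tumours, with overlap between all lines. Its difference was 0.91 in 4T1OE-CTL minus parental (SE 0.564, adjusted p = 0.486) and -1.74 in 4T1OE minus 4T1OE-CTL (SE 0.517, adjusted p = 0.0752). The gap Lum minus Dcn within an array, of which only changes can be read, was -0.87 to 0.58 on the fitted parental arrays, -6.15 to -3.32 on the 4T1OE-CTL arrays and -2.96 to -0.98 on the 4T1OE arrays. The change of the gap from parental to 4T1OE-CTL was -4.59 (two-sided exact permutation test, p = 0.0286, the smallest it can give; adjusted p = 0.0686 over 12 such tests). On 12 arrays it was -4.16 (exact permutation, p = 0.0286, adjusted p = 0.0572). From 4T1OE-CTL to 4T1OE it changed by 2.71 (exact permutation, p = 0.0286, adjusted p = 0.0686). This and the next 3 pairs of neighbouring genes were picked with their values known.

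The other 3 pairs were tested the same way. The gap Col6a1 minus Col6a2 was 1.75 to 2.17 on the 4T1OE arrays, above its 0.65 to 1.32 on the 4T1OE-CTL arrays and 0.24 to 0.92 on the fitted parental arrays, with changes of 1.07 and 1.35 (exact permutation, p = 0.0286 and adjusted p = 0.0686 for each). For Col4a1 minus Col4a2 the change from 4T1OE-CTL to 4T1OE was -0.63 (exact permutation, p = 0.0286, adjusted p = 0.0686), from parental to 4T1OE-CTL it was 0.60 (exact permutation, p = 0.0571, adjusted p = 0.0979), and from parental to 4T1OE it was -0.03 (exact permutation, p = 0.943). Col3a1 minus Col5a2 changed by 0.44 or less between lines (exact permutation, p from 0.343 to 0.886). None of these 12 tests passed after adjustment. With a smallest possible p of 0.0286 in each, none could pass unless most of the 12 reached it. The number of arrays thus largely fixed this outcome, and it does not show that the gaps stayed the same.

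Ogn, the small proteoglycan osteoglycin, was highest in the control line. It had 7.96, 7.67, 8.59 and 8.69 in 4T1OE-CTL tumours and 7.23, 6.88, 7.56 and 6.66 in 4T1OE tumours, with no overlap, and 6.98, 7.49 and 7.74 on the fitted parental arrays, which overlapped both lines. It fell by 1.14 in 4T1OE against 4T1OE-CTL (SE 0.25, adjusted p = 0.0306), and had 0.75 in 4T1OE-CTL minus parental (SE 0.273, adjusted p = 0.197). Fitting all arrays raised the first adjusted p to 0.104. The call also ended without WT 4T1OE replicate 2, either Nlrx1-/- 4T1OE array, WT 4T1OE-CTL replicate 1 or either Nlrx1-/- 4T1OE-CTL array (adjusted p from 0.0623 to 0.0849). Bgn, biglycan, had -1.33 and -1.22 in 4T1OE and 4T1OE-CTL minus parental (adjusted p = 0.0905 and 0.0922). Its fitted parental values of 13.65, 13.49 and 12.11 lay above all 4T1OE values, and 1 4T1OE-CTL array, at 12.68, lay among them. For Fmod no size is given, since every array of at least 1 line lay under the negative control median in each comparison, and likewise for Dpt against parental tumours.

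Adhesive and matricellular genes, 7 of the 35, gave 6 of the 14 calls between lines, with Postn and Thbs2 each counted in 2 comparisons. Of the 7, 3 fell in 4T1OE minus parental, 2 in 4T1OE-CTL minus parental and 1 in 4T1OE minus 4T1OE-CTL. Of all features, 0.441%, 1.62% and 1.04% passed lower in that order. Postn encodes periostin, a stromal protein that binds collagen and integrins. It measured 15.45 and 15.62 in WT parental tumours and 14.03 in the fitted Nlrx1-/- parental tumour. The 4T1OE-CTL tumours had 13.47, 11.16, 11.60 and 12.28, and the 4T1OE tumours 11.65, 11.55, 12.12 and 12.23. Every transduced array lay below every parental one, the left-out array at 13.70 included. The fall was 3.10 in 4T1OE (SE 0.509, adjusted p = 0.0161), 8.56-fold, and 2.86 in 4T1OE-CTL (SE 0.509, adjusted p = 0.0135), 7.24-fold. Postn kept both calls with all 12 arrays (-2.81, adjusted p = 0.0262, and -2.57, adjusted p = 0.0414). The 4T1OE call ended without WT parental replicate 1 or either WT 4T1OE array (adjusted p from 0.0508 to 0.0612), and the 4T1OE-CTL call without WT parental replicate 2 (-2.61, adjusted p = 0.0592).

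Thbs1 and Thbs2 encode thrombospondins 1 and 2, secreted proteins known to restrain vessel growth. Thbs2 had 12.77, 13.15 and 12.27 in fitted parental, 13.79, 12.27, 10.51 and 12.69 in 4T1OE-CTL and 10.61, 10.15, 10.27 and 10.16 in 4T1OE tumours. The 4T1OE arrays lay below all fitted parental arrays and below 3 of the 4 4T1OE-CTL arrays, with Nlrx1-/- 4T1OE-CTL replicate 1 in their range. It fell by 2.3 against parental (SE 0.503, adjusted p = 0.0493) and by 2.02 against 4T1OE-CTL tumours (SE 0.461, adjusted p = 0.0341), and was the only one of the 35 genes with a call against both. On all 12 arrays these were -1.82 (adjusted p = 0.135) and -2.02 (adjusted p = 0.148). The call against parental ended without any one of the 7 fitted parental and 4T1OE arrays or WT 4T1OE-CTL replicate 2 (adjusted p from 0.0560 to 0.154). The call against 4T1OE-CTL ended without WT parental replicate 2, any 4T1OE array, WT 4T1OE-CTL replicate 1 or Nlrx1-/- 4T1OE-CTL replicate 2 (adjusted p from 0.0501 to 0.106).

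Thbs1 had 14.20, 13.56 and 14.38 on the fitted parental arrays and 12.56, 13.12, 12.19 and 11.77 on the 4T1OE arrays, without overlap. It fell by 1.57 (SE 0.331, adjusted p = 0.0439). Fitting all 12 arrays gave -0.88 (adjusted p = 0.378), and the call ended without WT parental replicate 1, Nlrx1-/- parental replicate 2, any 4T1OE array, WT 4T1OE-CTL replicate 1 or Nlrx1-/- 4T1OE-CTL replicate 1 (adjusted p from 0.0510 to 0.176).

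The windows before the starts of Postn and Thbs2 are shown because these genes had the largest falls among matricellular genes in 4T1OE tumours. They come from RefSeq, build GRCm38.p6, at chr3:54360857-54361106 on the plus strand and chr17:14694263-14694512 on the minus strand, printed 5′ to 3′ along the gene, and 2 start windows were listed for Postn, of which the downstream one is given. Capitals mark TATAAA 26 bases before the Postn start, and for Thbs2 TATAAA on the opposite strand at 126 bases and CCAAT at 144 bases and, on the opposite strand, at 186 bases.
Postn: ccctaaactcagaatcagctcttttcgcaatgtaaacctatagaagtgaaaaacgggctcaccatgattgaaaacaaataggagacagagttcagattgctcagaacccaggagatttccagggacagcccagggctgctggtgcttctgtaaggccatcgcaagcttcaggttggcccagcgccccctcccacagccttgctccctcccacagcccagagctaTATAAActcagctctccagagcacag
Thbs2: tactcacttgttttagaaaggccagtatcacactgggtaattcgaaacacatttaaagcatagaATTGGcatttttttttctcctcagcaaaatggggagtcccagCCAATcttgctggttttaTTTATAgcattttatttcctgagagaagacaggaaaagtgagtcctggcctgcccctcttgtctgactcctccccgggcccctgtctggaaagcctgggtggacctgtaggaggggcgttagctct

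Such windows, 250 bases before the start, were listed for 24 of the 35 genes. On either strand, TATAAA was present in 20.8% of them and in 14.3% of all 27025 gene windows, CCAAT in 29.2% and 37.5%, GGGCGG in 54.2% and 35.4%, and TGANTCA in 4.17% and 7.82%. TATAAA was held by Col3a1, Ogn, Postn, Thbs2 and Tnc. These are matches of letters and describe the windows only.

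Sparc encodes osteonectin, a collagen-binding protein made by stromal and tumour cells. It had 18.16, 18.24 and 18.14 on the fitted parental arrays, 17.62, 17.51, 16.38 and 16.69 in 4T1OE-CTL and 17.65, 17.72, 17.57 and 17.17 in 4T1OE tumours. The transduced arrays all lay below the fitted parental ones. It fell by 1.05 in 4T1OE-CTL (SE 0.237, adjusted p = 0.0393), while the 4T1OE value of -0.57 did not pass (adjusted p = 0.307). On all arrays, where the left-out one had 15.19, the difference was -0.39 (adjusted p = 0.855). The call ended without WT parental replicate 2, Nlrx1-/- parental replicate 2, any 4T1OE array or either Nlrx1-/- 4T1OE-CTL array (adjusted p from 0.0572 to 0.294).

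Tnc, the de-adhesive glycoprotein tenascin C, spread widely within the parental and 4T1OE-CTL lines. It had 15.09, 15.34 and 12.57 on the fitted parental, 14.83, 12.38, 10.81 and 12.95 on the 4T1OE-CTL and 12.83, 12.20, 11.97 and 11.65 on the 4T1OE arrays. Its differences of -1.91 in 4T1OE and -1.33 in 4T1OE-CTL minus parental had SEs of 0.62 and did not pass. Vcan, the large proteoglycan versican, had -0.75 in 4T1OE against either other line, and Fn1 differed by -0.31 to 0.29 between lines, again without a call.

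Among elastic fibre genes, Mfap5, a microfibril-associated glycoprotein gene, had 7.09, 6.65 and 6.97 on the fitted parental arrays and 5.28, 5.45, 5.29 and 5.90 in 4T1OE tumours, close to the negative control medians of 5.24 to 5.96. The groups did not overlap, and the fall was 1.41 (SE 0.308, adjusted p = 0.0498). Fitting all arrays gave -1.10 (adjusted p = 0.145). The call ended without any one of the fitted parental or 4T1OE arrays, WT 4T1OE-CTL replicate 2 or Nlrx1-/- 4T1OE-CTL replicate 1 (adjusted p from 0.0505 to 0.162). Eln, elastin, had -1.40 in 4T1OE (SE 0.31, adjusted p = 0.0531) and -1.14 in 4T1OE-CTL minus parental (adjusted p = 0.0774), and with all 12 arrays the first was -1.41 and passed (adjusted p = 0.0422). Fbln5, fibulin 5, an elastic fibre assembly protein, had -1.30 in 4T1OE-CTL minus parental (adjusted p = 0.0553). Fbln1 and Fbln2 stayed within 0.41 of 0 in each comparison of lines.

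Cross-linking and processing genes gave no call with limma (0 of 3 in each comparison of lines; at an unadjusted p under 0.05, Lox in 4T1OE minus 4T1OE-CTL, and Lox and Loxl1 in 4T1OE minus parental). Lox, lysyl oxidase, which starts collagen cross-linking, had 9.64, 9.47 and 8.56 on the fitted parental and 7.99, 7.56, 7.48 and 8.07 on the 4T1OE arrays, a difference of -1.31 (SE 0.31, adjusted p = 0.0671) without overlap. Loxl1 had -0.74, and Pcolce, the procollagen C-proteinase enhancer gene, 0.49.

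Host genotype was compared over all lines. No gene passed in Nlrx1-/- minus WT hosts with limma, among the 35 or among all features (0% called; at an unadjusted p under 0.05, 6 of the 35, all lower, against 4.30% of all features, 2.68% lower and 1.62% higher). The differences were negative for 28 of the 35 genes, with a median of -0.30 against 0 over all features, and for 32 with a median of -0.49 when all 12 arrays were fitted. Without Nlrx1-/- 4T1OE-CTL replicate 1 the median was -0.19. All 14 epithelial markers had negative differences (median -0.73, 5 at an unadjusted p under 0.05), with a summed level of 16.04 to 17.69 on WT and 14.39 to 16.98 on fitted Nlrx1-/- arrays. All 12 lymph node markers had positive ones (median 1.63, 4 at an unadjusted p under 0.05), with 9.12 to 9.98 and 9.26 to 15.66. Skeletal muscle markers had a median of -0.88. No marker passed after adjustment, and their part in the result was not tested, except that the median over the 35 genes was -0.30 without the 2 arrays high in lymph node markers and -0.21 without the 3 high in muscle markers. Tnc had -1.57 (SE 0.493), Vcan -0.93 (SE 0.275), Lox -0.77 (SE 0.246), Thbs2 -0.77 (SE 0.399), Col1a1 -0.67 (SE 0.281), Col8a1 -0.53 (SE 0.201) and Sparc -0.52 (SE 0.188), each with an adjusted p of 1. The 3 highest were Ogn at 0.46 (SE 0.217), Dpt at 0.38 (SE 0.311) and Col14a1 at 0.33 (SE 0.174). WT and Nlrx1-/- arrays overlapped for every gene named here.

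Within a line, the median host difference over the 35 genes was -0.42 in parental, -0.40 in 4T1OE-CTL and -0.04 in 4T1OE tumours. No gene of the array passed in any of these with limma (at an unadjusted p under 0.05, 10, 8 and 0 of the 35 genes, and 4.70%, 9.55% and 0.874% of all features). The 10 genes in parental tumours were all lower, against 2.43% of features lower and 2.27% higher, and in 4T1OE-CTL tumours 7 were lower and 1 higher, against 6.29% and 3.26%. With the left-out array fitted too, the parental median was -1.02. In parental tumours, where 1 Nlrx1-/- array was fitted, Tnc had -2.65 (SE 0.97), Col1a2 -1.90 (SE 0.573) and Postn -1.5 (SE 0.726). Those with the highest values there were Fbln2 at 0.71 (SE 0.737), Col4a2 at 0.67 (SE 0.493) and Col4a1 at 0.63 (SE 0.40), with adjusted p from 0.775 to 1 for these 6. In 4T1OE-CTL tumours Lox was at 9.34 and 8.92 in WT and 7.69 and 7.79 in Nlrx1-/- hosts, a difference of -1.39 (SE 0.305, adjusted p = 0.312), and Tnc, Thbs2 and Vcan had -1.72 (SE 0.792), -1.43 (SE 0.659) and -1.42 (SE 0.402). Highest there were Ogn at 0.82 (SE 0.348), Dpt at 0.65 (SE 0.505) and Col6a3 at 0.57 (SE 0.475), and the adjusted p of these 6 ran from 0.372 to 0.743. In 4T1OE tumours the same Lox values were 7.99 and 7.56 against 7.48 and 8.07, which overlapped. Thbs1, Tnc and Fbln2 were lowest there at -0.86 (SE 0.383), -0.70 (SE 0.792) and -0.67 (SE 0.601), and Lum and Postn highest of the genes above background at 0.63 (SE 0.374) and 0.58 (SE 0.593), each with an adjusted p of 1.

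**Figure D4:**
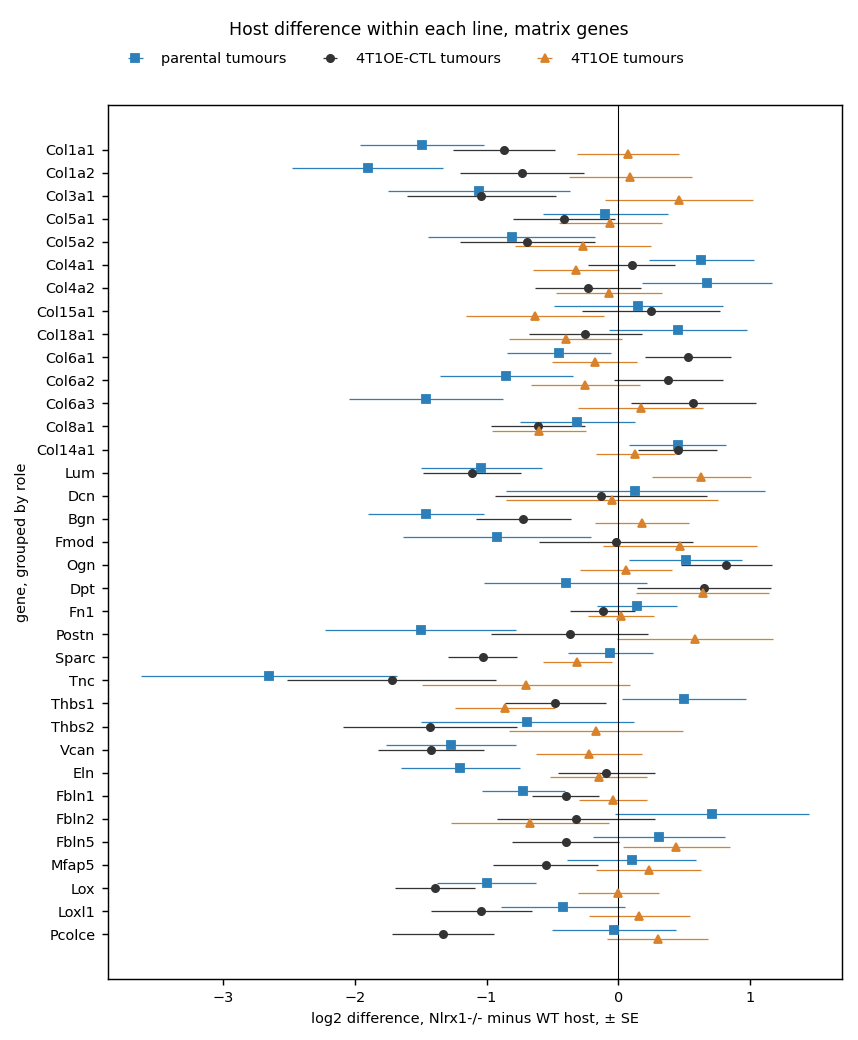
Points are fitted log2 differences, Nlrx1-/- minus WT hosts, of the 35 matrix genes in parental (blue), 4T1OE-CTL (black) and 4T1OE (orange) tumours, with bars of 1 SE. Orange points of genes above background lie between -0.86 and 0.63, and Tnc in parental tumours lies farthest left at -2.65.

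The transduced lines were also compared within each host. In WT hosts no gene of the 35 passed with limma (0.0135% of all features did; at an unadjusted p under 0.05, 8 of 35, 2 higher and 6 lower, and 8.07% of all, 4.97% higher and 3.11% lower). Thbs2 had -2.65 (SE 0.659), Col1a2 -1.85 (SE 0.468), Dcn -1.78 (SE 0.804), Col18a1 1.76 (SE 0.427), Col6a1 1.02 (SE 0.325) and Col4a2 0.86 (SE 0.403), with adjusted p values of 0.303, 0.315, 0.622, 0.282, 0.453 and 0.625 in that order. In Nlrx1-/- hosts again none of the 35 passed (1.19% of all features did, 1.10% higher and 0.0946% lower; at an unadjusted p under 0.05, 6 of 35, 5 higher and 1 lower, and 20.8% of all, 13.2% higher and 7.59% lower). Lum had 1.84 (SE 0.374, adjusted p = 0.0514), Col18a1 1.61 (SE 0.427, adjusted p = 0.0849), Fbln5 1.21 (SE 0.408), Dcn -1.70 (SE 0.804), Ogn -1.53 (SE 0.348, adjusted p = 0.0608) and Thbs2 -1.39 (SE 0.659). Col18a1, Thbs2 and Dcn, listed for both hosts, had values of the same sign in both. The interaction of line and host passed for no gene (0% called; at an unadjusted p under 0.05, 3 of 35, all higher, and 3.27% of all, 2.15% higher and 1.12% lower). Its largest values were 1.74 for Lum (SE 0.528), 1.63 for Pcolce (SE 0.544) and 1.5 for Col3a1 (SE 0.798), and its lowest -0.88 for Col15a1, -0.77 for Ogn and -0.71 for Col6a1, each with an adjusted p of 0.999.

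Lists of other matrix genes, chosen by function, were counted beside the 35. Their calls in 4T1OE minus 4T1OE-CTL depended on the arrays fitted. Over all features 1051 passed there, but 25 with all 12 arrays and 4 with the array standard deviation as covariate. Without the 3 arrays high in muscle markers 0 features passed, so no call of these lists in that comparison held. Of 28 other collagen chain genes 1 passed, Col16a1 at -0.82 in 4T1OE minus 4T1OE-CTL (adjusted p = 0.0461), where 1.04% of all features passed lower. The differences were negative for 23 of the 28 there, with a median of -0.39, and at an unadjusted p under 0.05 11 were lower and 1 higher, against 9.84% and 14.3% of features. The list's median deviation was 0.15 to 0.47 on the 4 fitted arrays of standard deviation under 3. It was 0.58 on the array left out and at most 0.01 on the other arrays. What the spread of the arrays contributed was not tested. The list's median differences were -0.17 in 4T1OE and 0.19 in 4T1OE-CTL minus parental. Of 25 collagen modification and cross-linking enzyme genes, Colgalt1, a collagen galactosyltransferase gene, rose by 1.48 in that comparison (adjusted p = 0.0139), and Pcolce2 (2.03) and Loxl4 (1.24) rose in 4T1OE minus parental. Medians of the enzyme list were 0.24 and 0.35 there and 0.11 in 4T1OE-CTL minus parental. Of 14 laminin and other basement membrane genes, the nidogen gene Nid2 rose by 1.75 in 4T1OE minus 4T1OE-CTL (adjusted p = 0.0248), and Nid1 (-1.24) and Lama2 (by at least 0.86, its 4T1OE-CTL arrays being at background) fell in 4T1OE-CTL minus parental. The medians of that list were 0.58 and -0.34 in these comparisons, as against -0.05 and 0.02 over all features, and -0.01 in 4T1OE minus parental.

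Of 40 other proteoglycan and glycoprotein genes, Aspn, asporin, a proteoglycan of the lumican family, fell by 2.55 in 4T1OE-CTL (adjusted p = 0.00524) and by 1.82 in 4T1OE against parental tumours (adjusted p = 0.0439). Thbs3 rose by at least 0.93 and Srpx2 fell by 1.21 in 4T1OE-CTL minus parental, and Matn2 rose by 1.63 in 4T1OE minus 4T1OE-CTL. Of 25 integrin and other receptor genes, Sdc2, the syndecan 2 gene, rose by 3.25 (adjusted p = 0.0146) in 4T1OE minus 4T1OE-CTL, Itga6 by 1.84 and Dag1 by 1.44, while Itga8 fell by 1.90 (adjusted p = 0.00227). Against parental, 4T1OE-CTL tumours had Sdc2 at -2.65, Itgb5 at -1.10 and Itga8 at 1.54, all past the threshold. Of 15 TGF-beta ligand, receptor and latency genes, Tgfb3 (1.46), Ltbp1 (1.85) and Ltbp2 (1.45) rose in 4T1OE minus 4T1OE-CTL, Tgfb3 (-1.49) and Ltbp3 (-2.12) fell in 4T1OE-CTL minus parental, and Ltbp2 (2.3) rose in 4T1OE minus parental. In 4T1OE minus 4T1OE-CTL, 14 of the 15 had positive differences (median 0.71, 7 higher and 0 lower at an unadjusted p under 0.05, against 14.3% and 9.84% of all features). In 4T1OE-CTL minus parental 12 of the 15 had negative ones (median -0.70, 8 lower and 1 higher, against 9.25% and 6.66%). Past the adjusted threshold, 3.69% of all features were higher and 1.04% lower in the first comparison, and 0.968% and 1.62% in the second. The median in 4T1OE minus parental was -0.03. In the order 4T1OE minus parental, 4T1OE-CTL minus parental and 4T1OE minus 4T1OE-CTL, medians were -0.18, -0.23 and 0.46 for the receptor list and -0.15, 0.12 and -0.21 for the proteoglycan and glycoprotein list. Within Nlrx1-/- hosts, Colgalt1 (1.81), Itga6 (2.42), Dag1 (2.03), Sdc2 (3.71) and Ltbp1 (2.08) rose and Itga8 (-2.15) fell in 4T1OE minus 4T1OE-CTL.

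Markers of cell types were set beside the matrix genes. Of 15 fibroblast markers with a feature, 1 changed in each comparison of lines, the complement gene C1ra (2.21, 1.29 and -0.92 in 4T1OE-CTL minus parental, 4T1OE minus parental and 4T1OE minus 4T1OE-CTL). Of all features, 2.59%, 1.33% and 4.73% passed in these comparisons in that order. The list's median deviation ran from -0.06 to 0.17 on the fitted parental, -0.02 to 0.20 on the 4T1OE-CTL and -0.18 to 0.06 on the 4T1OE arrays. Its summed level, log2 of the sum of linear values, ran from 12.40 to 12.70, 12.10 to 12.84 and 12.51 to 12.85 in the same order. Pdgfrb and Gsn were above background on all 12 arrays, Scara5, Meox1 and Clec3b under it on all 12, Pi16 and Tcf21 on 11, and Pdgfra had no feature. The fibroblast list on the left-out array was at -0.66, beside its low collagen values. Other cell type lists there were at -2.28 (macrophage), -0.83 (endothelial), -0.27 (smooth muscle and pericyte), -0.12 (adipocyte), 0.02 (skeletal muscle), 1.01 (epithelial) and 2.65 (lymph node).

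Smooth muscle and pericyte markers changed for 2 of 11 genes in 4T1OE-CTL minus parental (against 2.59% of all features), Acta2 (-1.82) and Rgs5 (-2.14). They changed for 1 in 4T1OE minus parental (against 1.33%), Tagln (-1.37). They changed for 2 in 4T1OE minus 4T1OE-CTL (against 4.73%), Rgs5 (1.96) and Abcc9 (1.07). Their summed level was 13.04 to 13.05 on the fitted parental, 11.48 to 12.15 on the 4T1OE-CTL and 11.85 to 13.11 on the 4T1OE arrays, and Myh11, Cnn1 and Cspg4 were under background on 10, 11 and 11 arrays. Epithelial markers fell for 7 of 14 genes in 4T1OE-CTL and 6 of 14 in 4T1OE minus parental, where 1.62% and 0.441% of all features passed lower. The 7 were Epcam (-5.84), Cdh1, Cldn3, Cldn4, Cldn7, Esrp1 and Grhl2. All but Cdh1 also fell in 4T1OE, Epcam by 5.56. Summed over the 14 epithelial markers, levels were 16.98 to 17.69 on the fitted parental and 14.39 to 16.66 on the 4T1OE-CTL arrays. On the 4T1OE arrays they were 16.16 to 16.72. Krt8 and Krt18 were above background on all 12 arrays. The medians of the smooth muscle list were -0.05 in 4T1OE minus parental, -0.40 in 4T1OE-CTL minus parental and 0.51 in 4T1OE minus 4T1OE-CTL. Those of the epithelial list were -1.96, -2.05 and -0.11, so its median was lower in both lines than in parental tumours, as were those of the fibrillar collagens (-2.17 and -1.08). In 4T1OE minus 4T1OE-CTL the epithelial median was -0.03 within WT and 0.69 within Nlrx1-/- hosts. In Nlrx1-/- hosts 9 of 14 differences were positive and 5 negative. Cdh1 (3.08) and Krt18 (2.10) passed there, where 1.10% of all features passed higher. The part of the epithelial list in the result was not tested.

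Some macrophage and endothelial markers rose in the comparison in which Col18a1 rose, as did genes of the laminin, receptor and TGF-beta lists. No relation to Col18a1 was computed. In 4T1OE minus 4T1OE-CTL, where 3.69% of all features passed higher, 6 of 11 macrophage markers rose. They were Folr2 (3.14), Csf1r (2.32), Mrc1 (2.19), Cd163 (2.00), C1qb (1.98) and Mertk (1.10). Of 11 endothelial markers 3 rose, Flt1 by 1.76, Cdh5 by 2.03 and Plvap by 1.48. Cdh5 also fell by 2.10 in 4T1OE-CTL minus parental. Within Nlrx1-/- hosts Folr2 rose by 3.15 in 4T1OE minus 4T1OE-CTL. Without the 3 arrays high in muscle markers, 0 features of the array passed in 4T1OE minus 4T1OE-CTL averaged over hosts. Summed macrophage levels were 16.02 to 16.47 on the 4T1OE, 13.71 to 15.18 on the 4T1OE-CTL and 14.25 to 16.02 on the fitted parental arrays, and endothelial ones 12.29 to 13.43, 11.42 to 11.99 and 12.11 to 13.24. The defining genes Csf1r, Adgre1, Pecam1 and Cdh5 were above background on all 12 arrays. Their part in the result was not tested.

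Skeletal muscle and lymph node markers stood high on single arrays of the transduced lines and on none of the fitted parental arrays (muscle deviations -0.54 to -0.34, lymph node -0.25 to -0.09 there). On the parental array left out, lymph node markers stood at 2.65 (summed level 13.83) and muscle markers at 0.02. Summed muscle levels reached 14.17 on a 4T1OE-CTL array and 16.36 on a 4T1OE array, against 9.92 to 10.02 on the fitted parental arrays, and summed lymph node levels 15.66 and 14.64, against 9.12 to 9.63. Without the 2 arrays high in lymph node markers, 6 of the 8 genes that fell in 4T1OE minus parental still passed. Without the 3 arrays high in muscle markers Col5a2 (-2.27, adjusted p = 0.0376) and Postn (-3, adjusted p = 0.0412) did. Lum was then at -2.70 (adjusted p = 0.0607) and Col1a1 at -2.19 (adjusted p = 0.0671). In 4T1OE-CTL minus parental, Lum and Postn passed without either set of arrays, joined by Col5a2 (-2.06, adjusted p = 0.0396) without the muscle arrays. In 4T1OE minus 4T1OE-CTL, Thbs2 alone passed without the lymph node arrays (-2.61, adjusted p = 0.0274), and with limma 0 of the 35 passed without the muscle arrays (6 at an unadjusted p under 0.05), where 0 features of the array did. None of 9 adipocyte markers passed in any comparison, and Adipoq, Plin1, Lep and Retn were under background on all 12 arrays.

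**Figure D5:**
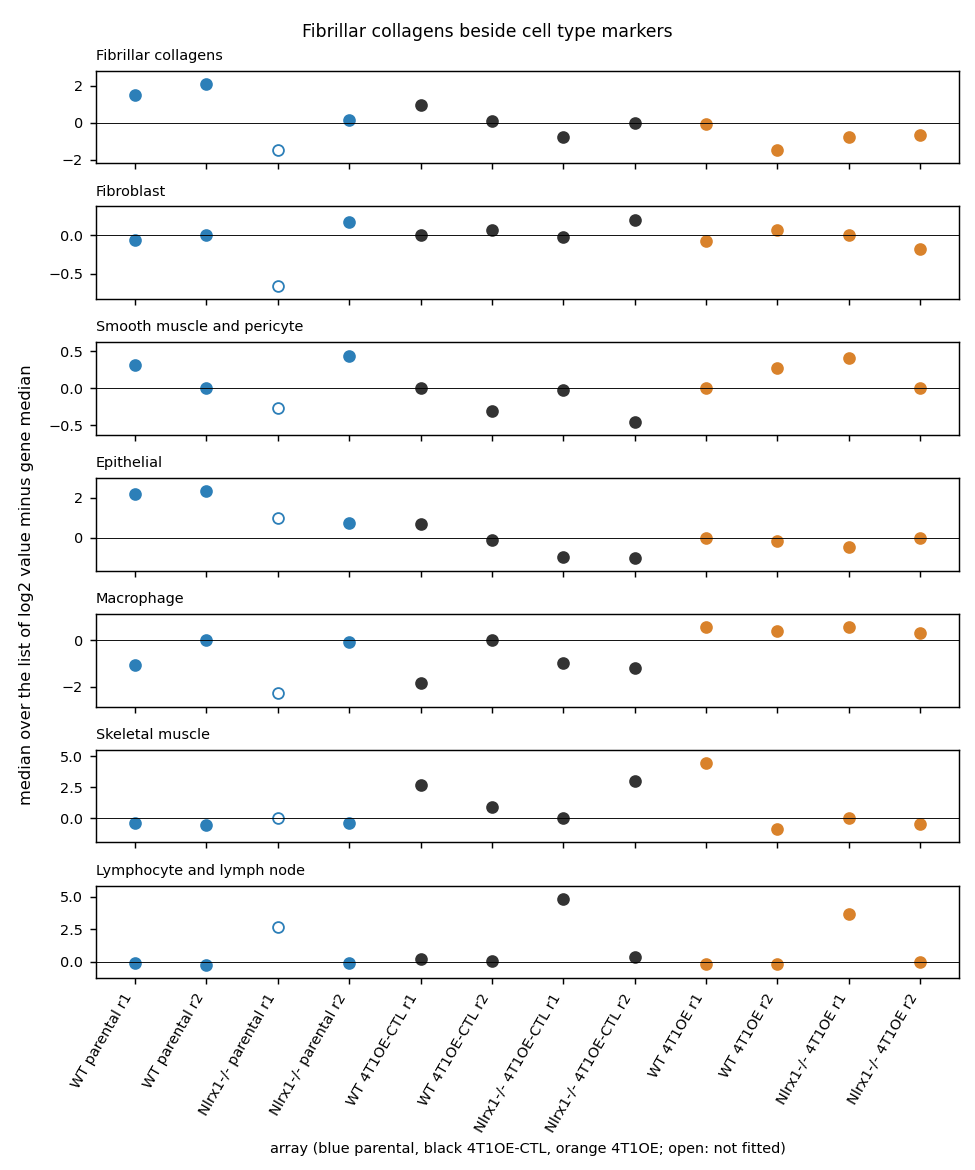
For each array, points give a list's median deviation, in log2 units from each gene's median on the fitted arrays, for the fibrillar collagens and 6 cell type marker lists, with a separate vertical scale in each panel. Fibrillar collagens are highest in WT parental tumours, fibroblast markers lie within 0.20 of 0 on the fitted arrays, and muscle and lymph node markers stand high on single arrays.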

How the data were processed

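Expression was measured on Clariom S mouse arrays in 12 pools of tumour RNA. The authors deposited 1 table of log2 values per feature and array; the Transcriptome Analysis Console is named per the submitters' processing notes, and its version and the background and normalization method are not given in the sources used here. Values were used as deposited. Of 28846 features, 6640 controls were removed and 22206 tested; the per-array median of 5222 negative control features stood for background. The manufacturer's control column (1) held no values. The number of arrays limits precision.

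Genes and lists were chosen with earlier results of these data known. All 35 genes with a feature are accounted for. Full statistics go to those past the threshold and, in comparisons with fewer than 5 such genes, to the 3 highest and 3 lowest differences; other lists' genes are named where they passed. For each difference, limma 3.58.1 (R 4.3.3) was run on 11 arrays with moderated two-sided tests and Benjamini-Hochberg adjustment over all features, and an adjusted p under 0.05 passed: an additive model of host and line for averaged differences, and 1 mean for each of the 6 groups for differences within a host or line. Where all arrays of 1 side lay under background, a bound ("at least") replaced the fitted value. Within-array gaps between genes were compared with exact permutation tests. The fit was tested on simulated data. Alternatives were other sets of arrays, normalization, filter, variance model, array weights, threshold, a replicate block, the array standard deviation as covariate, and each array left out in turn.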

Additional observations from a re-analysis of the deposited data

Results flagged for a closer look

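Gap checks within a line were run for the 11 genes that passed in a comparison, over 33 sets of 4 arrays, and 2 values stood apart from the rest of their set; chance alone gives about 1 in 20. Sparc on Nlrx1-/- parental replicate 1, the array left out of the fits, was 15.19, with the nearest parental array at 18.14. Mfap5 on WT 4T1OE-CTL replicate 1 was 6.58, with the nearest array of that line at 5.54; without that array the difference of Mfap5 in 4T1OE-CTL minus parental was -1.52 (limma adjusted p = 0.0112), where it was -1.17 (adjusted p = 0.0693) with it.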

How the results depend on the processing

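The counts of genes that passed, 3 in 4T1OE minus 4T1OE-CTL, 3 in 4T1OE-CTL minus parental and 8 in 4T1OE minus parental, moved with the arrays fitted. With all 12 arrays they were 0 (7 at an unadjusted p under 0.05), 1 (Postn) and 2 (Postn and Eln). With the array standard deviation as covariate they were 0 (6 unadjusted), 3 (Lum, Postn and Fbln5) and 3 (Col1a1, Lum and Fbln5), so not all were the same genes. Without the arrays of standard deviation under 3 the count in 4T1OE minus parental was 6. WT 4T1OE-CTL replicate 2 was then the only array of its line, so its counts are not given, and 3 of the 10 comparisons had no fit. Without the arrays high in lymph node or muscle markers, alternatives chosen after seeing the data, the counts were 1, 2 and 6, and 0 (6 unadjusted), 3 and 2. Without the dimmest 33.3% of features they were 4, 5 and 9, with array weights 4, 5 and 12, with quantile normalization 3, 3 and 6, and with an intensity trend 3, 3 and 8. An unadjusted p under 0.05 with a fold of 2 gave 6, 12 and 15, and 1 for host genotype, 8 and 5 for 4T1OE minus 4T1OE-CTL in WT and Nlrx1-/- hosts, 3 for their interaction, and 8 and 6 for host in parental and 4T1OE-CTL tumours. In Nlrx1-/- hosts, 1 gene (Lum) passed without the dimmest features and 1 (Lum) with the trend, against 0. Leaving out 1 array at a time gave 0 to 5, 1 to 5 and 1 to 8 genes in the comparisons of lines, 0 to 2 for 4T1OE minus 4T1OE-CTL in Nlrx1-/- hosts and 0 in the others; host in parental tumours could not be fitted without Nlrx1-/- parental replicate 2. The low counts were 0 without WT 4T1OE replicate 2, either Nlrx1-/- 4T1OE array or WT 4T1OE-CTL replicate 1, then 1 without WT parental replicate 2 and 1 without WT 4T1OE replicate 1. The cause of these moves was not tested. No called difference changed sign under any alternative run.

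Replicate numbers did not pair the arrays: over 10 pairs of groups the correlation of deviations ran from -0.309 to 0.371, with 2 over 0.1. With the replicate block the counts were 3, 2 and 6, Sparc, Thbs1, Thbs2 and Mfap5 losing a call against parental and Eln gaining one.

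With 1 or 2 arrays a group, differences within a host or line are imprecise, and for Fmod, Dpt and other genes near background small changes could not be detected.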
